A study of Mus musculus with 1047 samples.

Results

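The cells described here were 273 T and natural killer (NK) cells without CD8 transcripts, out of 21197 cells of aged mouse brain profiled by droplet single-cell RNA sequencing (1.29%, exact 95% binomial interval 1.14 to 1.45). They were chosen by their own transcripts, counted as unique molecular identifiers (UMIs), each of which marks 1 captured mRNA molecule. A cell was taken when it had 500 or more genes detected, 0 UMIs of both Cd8a and Cd8b1, and under 30 UMIs per 10000 of the microglial genes P2ry12, Cx3cr1 and Trem2 together. It also had to have at least 2 of Cd3d, Cd3e and Cd3g detected (the Cd3 branch), or Nkg7 together with Ncr1 or Klrb1c (the NK branch). The Cd3 branch alone held 215 cells, the NK branch alone held 44, and 14 cells met both conditions. Other cells of the same table served for comparison: 899 CD8 T cells, which met the same rule but had a Cd8a or Cd8b1 UMI, and 11057 microglia, with 30 or more UMIs per 10000 of the 3 microglial genes. The microglia also had 500 or more genes and met neither branch condition.

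The series holds 1047 samples, of which 9 are 10x Chromium libraries of brain cells. The table of aged cells joins 5 of these libraries, 3 of grey matter and 2 of white matter, from male C57BL/6J mice aged 24 months and titled wild type, with 3 to 4 mice pooled in each library. For 1 of the white matter libraries the genotype label reads ApoeKO although the title reads wild type. A second table holds white matter from male ApoeKO mice (strain B6.129P2-Apoetm1Unc/J, in which the lipid carrier gene Apoe is disrupted), aged 18 months, in 4 libraries of 2 pooled mice each. Per the labels, tissue was dissociated with actinomycin D, which blocks new transcription, and myelin was removed with beads; no sort is named for these libraries. Barcodes in the aged table carry 5 endings (1_1, 1_2, 2_1, 2_2 and 3) that match no label. No cell could therefore be assigned to grey or white matter, the table counts as 1 pooled sample, and no p-value is given. Values per ending show the spread inside the table, and all intervals cover counting error only.

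T cells recognise peptides through a T cell receptor whose signal is passed on by the CD3 chains. CD4 T cells read peptides on MHC class II and direct other immune cells, whereas CD8 T cells read MHC class I and kill. NK cells carry no rearranged T cell receptor; they weigh activating receptors such as NKp46 (Ncr1) and NKG2D (Klrk1) against inhibitory receptors for MHC class I, and kill with perforin and granzymes. Lymphocytes are scarce in the healthy young brain, and T cells are known to collect in aged white matter.

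The labels T and NK were checked against marker genes. Cd3e, a CD3 chain used by the rule, was detected in 206 of 215 Cd3 branch cells (95.8%) and in 0 of 44 NK branch cells. Cd4, the co-receptor for MHC class II, was detected in 91 of 215 Cd3 branch cells (42.3%, 35.6 to 49.2), in 0 of the 44 NK branch cells and in 21 of 899 CD8 T cells (2.34%). Nkg7, a granule membrane protein of cytotoxic cells, was detected in all 44 NK branch cells by the rule and in 140 of 215 Cd3 branch cells (65.1%). Klrb1c (NK1.1) was detected in 40 and Ncr1 in 42 of the 44 NK branch cells, and neither had a UMI in the 215 Cd3 branch cells. Trac, the constant region of the T cell receptor alpha chain, played no part in the rule: it was detected in 185 of 215 Cd3 branch cells (86%) and in 3 of 44 NK branch cells (6.82%). Cd3e, Nkg7, Klrb1c and Ncr1 were used by the rule. It also placed any Cd3 branch cell with Nkg7 and either NK gene among the 14 cells of both branches. Of these genes Trac and Cd4 alone were not used by the rule. Few microglia carried these genes: Cd3e had a UMI in 0.425% of microglia, Cd4 in 0.136% and Nkg7 in 0.959%, at a median depth of 7665 UMIs per microglial cell against 5558 per member. Microglia that met either branch condition had been left out, so the Cd3e and Nkg7 shares are partly set by that choice.

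To show the regulatory sequence of genes that separated the branches, the 250 bases before the RefSeq gene start are given for the CD3 genes Cd3d and Cd3e, for Ncr1, and for Gzma, the granzyme with the largest ratio between the branches below. Sequences are from RefSeq, assembly GRCm38.p6, and run 5′ to 3′ on the gene's strand. Capitals mark the hexamer ACCACA or its reverse complement TGTGGT, which is found in the binding sequence of RUNX transcription factors.
Cd3d, chr9:44981536-44981785, plus strand: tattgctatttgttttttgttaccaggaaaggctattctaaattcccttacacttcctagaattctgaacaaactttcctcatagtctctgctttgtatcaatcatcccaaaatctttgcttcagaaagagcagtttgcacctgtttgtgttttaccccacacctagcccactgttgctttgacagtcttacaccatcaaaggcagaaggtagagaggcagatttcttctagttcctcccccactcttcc
Cd3e, chr9:45009612-45009861, minus strand: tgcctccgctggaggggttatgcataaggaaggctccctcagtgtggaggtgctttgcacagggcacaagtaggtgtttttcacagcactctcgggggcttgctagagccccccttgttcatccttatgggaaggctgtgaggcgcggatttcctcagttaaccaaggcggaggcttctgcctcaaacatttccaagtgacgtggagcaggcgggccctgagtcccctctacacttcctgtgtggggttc
Ncr1, chr7:4337465-4337714, plus strand: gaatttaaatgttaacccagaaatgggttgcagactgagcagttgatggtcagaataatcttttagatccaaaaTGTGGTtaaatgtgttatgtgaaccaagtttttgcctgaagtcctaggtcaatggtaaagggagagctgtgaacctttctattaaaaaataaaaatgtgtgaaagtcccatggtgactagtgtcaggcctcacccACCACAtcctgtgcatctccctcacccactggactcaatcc
Gzma, chr13:113100982-113101231, minus strand: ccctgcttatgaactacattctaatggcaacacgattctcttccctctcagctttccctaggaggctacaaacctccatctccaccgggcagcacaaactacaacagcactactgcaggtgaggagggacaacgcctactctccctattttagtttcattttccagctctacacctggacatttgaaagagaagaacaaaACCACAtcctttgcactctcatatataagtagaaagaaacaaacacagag
Ncr1 held 2 such hexamers, 176 and 41 bases before the start, and Gzma held 1, 50 bases before the start; these letters were not in the Cd3d and Cd3e windows. Of 32851 mouse promoters of the same length, 4614 (14%) held at least 1. The match is a description of the letters. Runx3, a RUNX factor of cytotoxic lymphocytes, was detected in 31 of 44 NK branch cells (70.5%, at 331 CPM, its UMIs per 1000000 UMIs of the group) and in 149 of 215 Cd3 branch cells (69.3%, 259.7 CPM), a ratio of 1.27.

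The members were spread unevenly over the barcode endings. Ending 2_2 held 128 of them, ending 2_1 held 68, ending 1_2 held 40, ending 3 held 21 and ending 1_1 held 16, which came to 2.92%, 1.66%, 0.91%, 0.359% and 0.649% of the cells of those endings. CD8 T cells numbered 533, 250, 60, 43 and 13 in the same order. There were 4.16 CD8 T cells per member in ending 2_2 and 3.68 in ending 2_1, against 2.05 in ending 3, 1.5 in ending 1_2 and 0.812 in ending 1_1 (3.29 over all endings). The endings with the most lymphocytes thus had the most CD8 T cells per cell without CD8. The NK branch did not follow the Cd3 branch: it held 10, 8, 17, 5 and 4 cells of endings 2_2, 2_1, 1_2, 3 and 1_1, against 110, 55, 22, 16 and 12 Cd3 branch cells. Its share of the members was 16.1% over all endings (12 to 21), 7.81% in ending 2_2 and 42.5% in ending 1_2. It was 11.6% without ending 1_2 and 23.4% without ending 2_2. Of the 17 NK branch cells of ending 1_2, 7 had 20 or more UMIs of haemoglobin genes and Alas2, described below. Without cells of this kind the share over all endings was 14% (10 to 18.7). Cd4 was detected in 40% of the Cd3 branch in ending 2_2, 45.5% in ending 2_1, 63.6% in ending 1_2, 33.3% in ending 1_1 and 25% in ending 3.

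**Figure D1:**
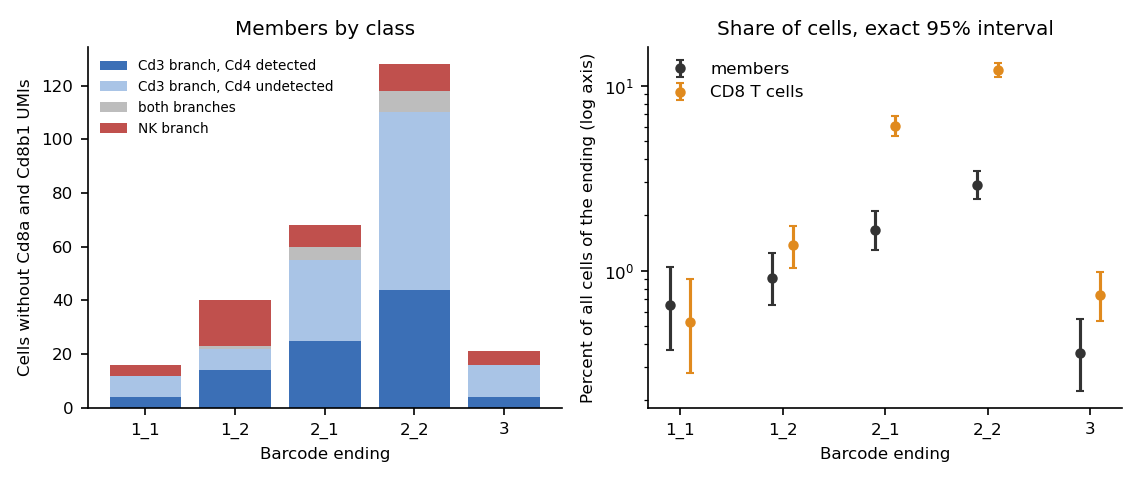
Left, bars show the number of members in each barcode ending, stacked by class. Right, points show members and CD8 T cells as a percent of all cells of the ending on a log axis, with exact 95% binomial intervals; both are highest in ending 2_2 (2.92% members and 12.1% CD8 T cells).

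At the edges of the rule, the member with the fewest genes had 539, and no cell was lost to the gene minimum alone. The highest member had 24.8 microglial UMIs per 10000, and 21 cells that met every other condition lay beyond the limit, from 30.8 upwards. Among members of the Cd3 branch and of both branches, 207 had all 3 Cd3 genes and 22 had exactly 2, while 108 cells with a single Cd3 gene were left out. A CD8 T cell can also fall among the members when its Cd8 transcripts are missed. Of the 899 CD8 T cells, 25 (2.78%) had a single Cd8 UMI, and the median over all 899 was 10 Cd8 UMIs. At least 2 markers of another cell type were present in 32 members (11.7%), 27 of them microglial, 3 of B cells and 3 of neutrophils, and in 79 CD8 T cells (8.79%). No caller of doublets was run. Endings shared between 0 and 11 barcodes, and no member shared a barcode with a member of another ending. In bulk sums over cells, fewer cells with a transcript and less of it per cell cannot be told apart, so detection and level are both given below.

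The first comparison set the Cd3 branch against CD8 T cells, by summed level, in CPM; a gene was compared when both groups together had 20 or more UMIs, and counted as higher or lower when the ratio was 2 or more. The Cd3 branch had higher levels of helper and type 3 genes and lower levels of killing genes and chemokines, while the T cell receptor machinery was level. Of 11647 genes compared, 369 (3.17%) were higher and 1070 (9.19%) were lower in the Cd3 branch. Many of these rested on a handful of cells: among genes detected in 10% or more of either group, 80 were higher and 79 lower. With the mean of per-cell levels in place of the sum, 550 were higher and 921 lower. Because the cells were sorted into groups by Cd8 detection in the same data, these ratios describe the groups and are not a test. Cells of the Cd3 branch that met the NK branch condition had been set apart, whereas such CD8 T cells were kept.

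Of the 17 genes of the T cell receptor complex and its signalling that the rule had not used, 0 were past the ratio of 2 in either direction (median log2 ratio 0.12, against 0.05 for all genes compared). Cd3 genes were part of the rule for both groups, and Cd3g had a UMI in 98.1% of the Cd3 branch and 99.6% of CD8 T cells. Similar levels of the genes that accompany them were thus partly set by the choice of cells. Trac was at 443 CPM in the Cd3 branch, and the signalling kinase Lck was detected in 82.8% of the Cd3 branch and 90.3% of CD8 T cells. The 10 MHC class I genes and the 16 interferon response genes were likewise all within 2-fold.

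Helper genes were higher, 5 of the 7 compared and none lower (median log2 ratio 1.81). Cd4 was at 120.1 CPM (103 to 139.8) and 23.1-fold higher than in CD8 T cells (16.2 to 33.7), in 5 of 5 endings. With each cell thinned to 1000 UMIs, Cd4 was detected in 11.2% of the Cd3 branch and 0.667% of CD8 T cells, so at this depth a missing Cd4 UMI does not mark a cell as lacking CD4. Cd40lg, the ligand by which helper T cells activate antigen-presenting cells, was detected in 34.4% of the Cd3 branch and 9.23% of CD8 T cells, a ratio of 5.12 in level (3.93 to 6.67). The costimulatory receptor Tnfrsf4 (OX40) was 7.9-fold higher (5.49 to 11.4), again in 5 of 5 endings. Icos, another costimulator, was 3.49-fold higher and Zbtb7b, the transcription factor that commits thymocytes to the CD4 lineage, was 3.19-fold higher. Tnfsf8 was within 2-fold at a ratio of 1.21. Foxp3, the defining factor of regulatory T cells, had UMIs in 3 of 215 cells, which at this depth does not limit how many cells express it. In the list for that subset Ikzf2 (2.73-fold) and Il2ra (2.95-fold) were higher, and Ctla4 was level at a ratio of 0.994. Izumo1r (folate receptor 4), found on regulatory and resting helper cells, was 5.44-fold higher and Trat1, an adaptor of the T cell receptor, 4.94-fold higher.

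All 5 type 3 genes compared were higher in the Cd3 branch (median log2 ratio 2.91). Among them were Ltb4r1, a leukotriene B4 receptor (9.99-fold, 6.8 to 14.8), Il1r1 (7.7-fold), Tmem176a (3.81-fold) and Tmem176b (3.59-fold). Without ending 2_2, 3 type 3 genes could be compared and all 3 were higher, with a median log2 ratio of 1.36. Of the cytokine genes, Il17a had UMIs in 1 of 215 cells and Il17f in 0, which at this depth does not limit how many cells express them. Of the gamma-delta list Tcrg-C1 (7.72-fold, 5.76 to 10.4) and Blk (19.9-fold, from 11 cells) were higher, and Tcrg-C2 was lower by a factor of 2.17. Tcrg-C4 and Trdc were within 2-fold, and Trdv4 and Cd163l1 had UMIs in 4 cells each and Sox13 in 4. The median log2 ratio of the list was 0.38, and it was -0.87 without ending 2_2, -0.61 without ending 2_1 and 2.02 without ending 1_2. Of the type 2 list, Il1rl1 (the interleukin-33 receptor) was 28.7-fold higher, from 12 cells, and Rora 2.46-fold higher. Areg was detected in 2 cells, Calca in 2, Il4 in 6 and Il17rb in 7, while Il5 and Ptgdr2 were at 0. Of the type 1 list, Il18r1 was 3.5-fold higher, and Ifng (0.943), Tbx21 (0.688), Stat4 (0.823) and Cxcr3 (1.2) were within 2-fold. Receptors that guide cells into tissue differed too: Ccr2 was 3.04-fold higher, in 41.9% against 21.6% of cells, and Ccr9 5-fold higher, from 9 cells of endings 2_1 and 2_2. B3galt2, a glycosyltransferase, and Cysltr1, a leukotriene receptor, were 8.48-fold and 5.7-fold higher. Ifitm1 was 7.46-fold higher, with 42.4% of its UMIs in 1 cell.

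Cytotoxic genes were lower, 7 of the 13 compared and none higher (median log2 ratio -1.12). Ccl5 was at 2275 CPM in the Cd3 branch and 6829 in CD8 T cells, and was detected in 60.9% against 99% of cells. Gzmb was 4.33-fold lower (3.38 to 5.63) and Prf1, the pore-forming perforin, 3.41-fold lower. Gzmk was detected in 30.7% of the Cd3 branch and 76.3% of CD8 T cells, and its level ratio of 0.53 stayed within 2-fold. Of the chemokine list 4 of 5 were lower, with Ccl3 lower by a factor of 10.5 (4.44 to 32.5) and Ccl4 by 7.35 (5.26 to 10.6), both in 5 of 5 endings. Of the checkpoint genes 5 of 10 were lower and none higher, Lag3 by a factor of 4.99. Of the NK receptors Klrk1 and Klrd1 were lower by factors of 2.31 and 2.32, each in 5 of 5 endings. The Cd3 branch left out the 14 cells of both branches, of which 12 had Klrk1 and 13 had Klrd1. CD8 T cells that met the NK branch condition were kept, so both ratios depend on the rule and are no independent measurement. Itgae (CD103), an integrin of tissue-resident CD8 T cells, was detected in 7 of 215 cells against 161 of 899, 6.32-fold lower. Gm44175, a long non-coding RNA at chr6:71354351-71360829 (GRCm38) between Cd8b1 and Cd8a, had 0 UMIs in the Cd3 branch and 226 in CD8 T cells, at least 13.9-fold lower when 3 UMIs stand for the 0. Its position next to the genes used by the rule means that this ratio is no independent measurement. Sema6d and Pdgfb were 8.95-fold and 4.51-fold lower.

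Several other ratios in this comparison were carried by very few cells. Ppp1r1a, Ube2c, Il1b and Abcc9 had no UMI in the Cd3 branch, and in CD8 T cells 78.5% of the Ppp1r1a UMIs came from 1 cell. Gzmm was detected in 53 CD8 T cells and 2 Cd3 branch cells. The endothelial and mural genes Cldn5, Vtn and Ptprb were 26.1-fold, 12.3-fold and 18.8-fold lower, and were detected in 2.56%, 2.89% and 1.78% of CD8 T cells. Ttr, a choroid plexus transcript, was detected in 129 of 215 Cd3 branch cells and was 3.68-fold lower. Hba-a1 was 9.43-fold lower, with 49.4% of the CD8 T cell UMIs in 1 cell, and its log2 ratio was 0.43 without cells that had 20 or more haemoglobin and Alas2 UMIs. The B and plasma cell list ran the other way, with 6 of 8 genes higher in the Cd3 branch, and without ending 1_2 none was higher and 4 were lower. Their part in the other ratios was not tested.

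**Figure D2:**
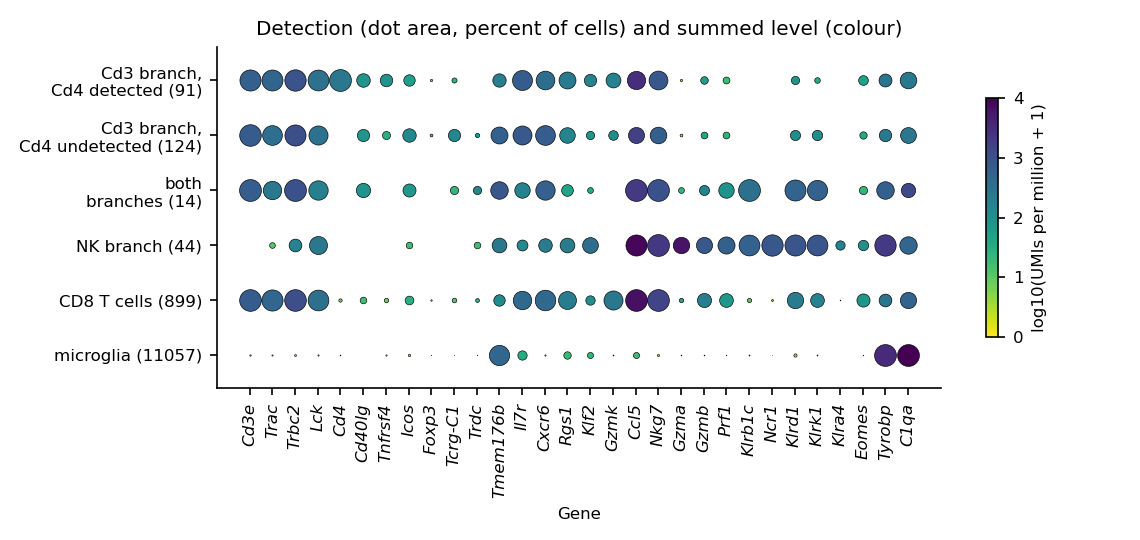
Each dot is a gene in a class of cells: its area is the percent of cells with a UMI and its colour the summed level, as log10(CPM + 1). Cd3e and Trac mark both Cd3 branch groups and CD8 T cells, Ncr1 and Klrb1c mark the NK branch, and Gzmk is largest in CD8 T cells.

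Within the Cd3 branch, the 91 cells with Cd4 detected were compared with the 124 without. The Cd4-detected cells had less of the gamma-delta and type 3 genes, and the helper genes were mixed. Of 6885 genes compared, 185 (2.69%) were higher and 316 (4.59%) lower in Cd4-detected cells. Itga4, the integrin subunit by which T cells enter the inflamed brain, was 2.59-fold higher (2.06 to 3.29), detected in 68 of 91 against 52 of 124 cells and higher in 5 of 5 endings. Cd6, a T cell surface receptor, was 2.95-fold higher (2.05 to 4.31) and Tnfrsf4 2.97-fold higher. Tcf4, AA467197 and the interferon-induced Ifit1bl1 were 3.14-fold, 3.02-fold and 2.56-fold higher, and Tbc1d4 and Tnfsf8 2.42-fold and 2.23-fold. Spp1, Irf8, Lyz2 and Ccnd1 were also higher, but 91.1%, 70.1%, 59.3% and 75% of their UMIs in Cd4-detected cells came from 1 cell each.

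Of the gamma-delta list 4 of 5 genes were lower in Cd4-detected cells, and of the type 3 list 4 of 4 (median log2 ratios -2.91 and -1.68, against -0.03 for all genes). Without ending 2_2 the counts were 2 of 3 and 1 of 3. Tcrg-C1, a constant region of the T cell receptor gamma chain, was 6.47-fold lower in Cd4-detected cells (3.68 to 12.3). Ly6g5b, Actn2, Lmo4, Serpinb1a, Ramp1, Igf1r, Krt83 and Wls were lower by factors between 4.32 and 7.43. Lmo4, Serpinb1a, Ramp1 and Wls were lower in 5 of 5 endings, Actn2 and Igf1r in 4, Ly6g5b in 3 and Krt83 in 2, with none of the 8 higher in any. Ttr was 4.77-fold lower, with 54.6% of its UMIs in 1 Cd4-undetected cell. Of the 6 helper genes compared 2 were higher (Tnfrsf4 and Tnfsf8) and 1 lower, with a median log2 ratio of 0.52. The lower one was Icos, detected in 25 of 91 against 47 of 124 cells and 2.47-fold lower (1.67 to 3.72). Without ending 1_2, 1 helper gene was higher and 1 lower. In the L7 and L8 cells of the ApoeKO table Tnfrsf4 had the opposite direction, at 11.6 against 32.5 CPM, from 1 and 5 UMIs. The T cell receptor list was level, with 1 of 17 genes higher (Cd6) and none lower, and the 8 cytotoxic and 16 interferon genes compared were all within 2-fold.

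Several of the named genes that were higher in Cd4-undetected cells were detected more often in cells with Tcrg-C1. The 124 Cd4-undetected cells were divided by Tcrg-C1, a split chosen after its values had been seen, into 39 with a UMI (31.5%, 23.4 to 40.4) and 85 without, at median depths of 5480 and 5325 UMIs. The 39 cells came mostly from ending 2_2 (29 of its 66 Cd4-undetected cells) and ending 2_1 (8 of 30), with 1 in ending 1_2, 1 in ending 3 and 0 of 8 in ending 1_1. Tmem176b was detected in 38 of the 39 cells (97.4%) and 37 of the 85 (43.5%). Il1r1 was detected in 10 against 2, the kinase gene Blk of the gamma-delta list in 9 against 2, and Il23r in 7 against 1. Actn2 was found in 25 against 8, Serpinb1a in 23 against 10, Ramp1, part of a neuropeptide receptor, in 28 against 23, and Il18r1 in 31 against 44. Lmo4 was found in 29 against 28, Igf1r and Krt83 each in 21 against 9, Ly6g5b in 20 against 8 and Wls in 15 against 14, and Ttr in 28 (71.8%) against 45 (52.9%). Microglia carried Tmem176b too, in 85.9% of cells at 471 CPM, against 1282 and 318 CPM in the cells with and without Tcrg-C1; the part of free microglial RNA in its detection was not tested. Actn2 had a UMI in 0.0452% of microglia. Type 3 genes were thus detected in a larger share of the cells with Tcrg-C1. Trdc, the delta chain constant region, was detected in 5 of the 39 and 0 of the 85.

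Conversely, Gzmk was detected in 0 of the 39 cells and 24 of the 85, and Eomes, a transcription factor of cytotoxic lymphocytes, in 0 against 14. Cd2 was found in 14 (35.9%) against 70 (82.4%), Cd5 in 3 against 34, and Cd28 in 7 against 45. Ccl5 was at 341 CPM in the cells with Tcrg-C1 and 2241 in the cells without. Trac was detected in 25 of the 39 (64.1%) and 76 of the 85 (89.4%), so the alpha chain was also present in most cells with Tcrg-C1. Without ending 2_2, which left 10 cells with Tcrg-C1 and 48 without, Tmem176b was detected in 9 of 10 against 16 of 48 and Gzmk in 0 of 10 against 14 of 48, whereas Cd2 was detected in 7 of 10 against 41 of 48. The gamma constant genes Tcrg-C1, Tcrg-C2 and Tcrg-C4 are near-identical in parts, so reads could be split among them.

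A second division was seen among the 91 Cd4-detected cells, again chosen after the values had been seen. Gzmk was detected in 42 of them (46.2%, 35.6 to 56.9) and undetected in 49, at median depths of 6206 and 5633 UMIs, and the 42 cells came from all 5 endings (21 of 44 in ending 2_2, 13 of 25 in 2_1, 4 of 14 in 1_2, 2 of 4 in 1_1 and 2 of 4 in 3). Eomes was detected in 18 of the 42 cells with Gzmk and in 0 of the 49 without. Nkg7 was found in 41 against 27 cells, and Ccl5 in 40 against 24, at 4739 and 1148 CPM. Xcl1 was found in 27 against 16 and the checkpoint receptor Pdcd1 in 11 against 4. Ikzf2 (3 against 15), Icos (7 against 18) and Cd40lg (12 against 23) were found more often without Gzmk. Without ending 2_2, Eomes was detected in 8 of 21 cells with Gzmk against 0 of 26. Gzmk and Eomes thus occurred in cells with Cd4 as well as in CD8 T cells, in which they were detected in 76.3% and 36.2% of cells.

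**Figure D3:**
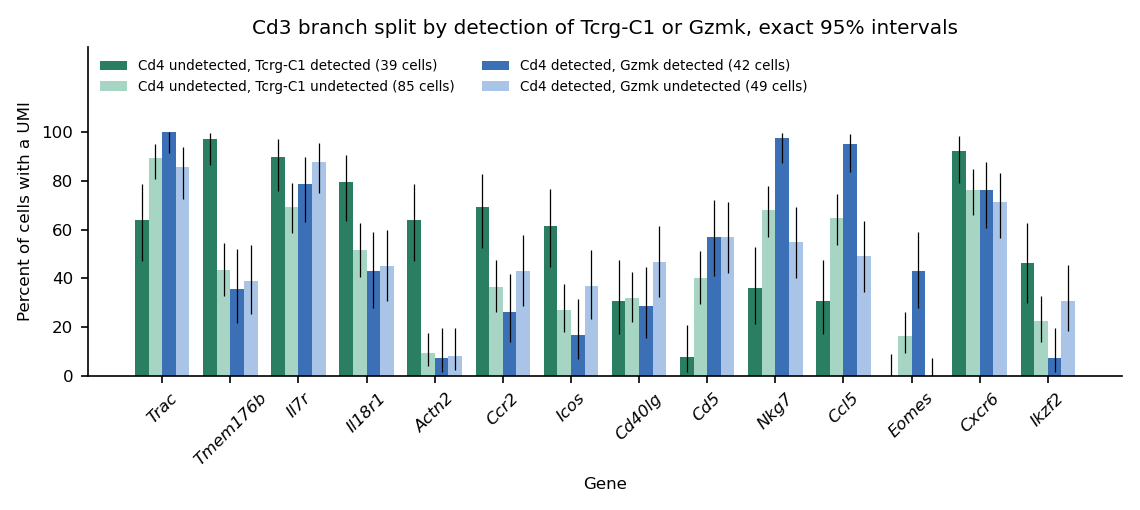
Bars show the percent of cells with a UMI, with exact 95% binomial intervals, in Cd4-undetected cells divided by Tcrg-C1 and Cd4-detected cells divided by Gzmk. Tmem176b and Actn2 are highest in the 39 cells with Tcrg-C1, and Nkg7, Ccl5 and Eomes in the 42 cells with Gzmk.

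The 14 cells that met both branches had Cd3 transcripts beside Klrb1c. All 14 had Klrb1c, none had Ncr1, and none had a Cd4 or Gzmk UMI. Klrd1 was detected in 13 of them, Klrk1 in 12, the collagen-binding integrin Itga1 in 12, Ly6c2 in 12 and Inpp4b in 13. Trac was detected in 10 and Trdc in 2. Il4 was detected in 3 of the 14, against 6 of 215 Cd3 branch cells. Ending 2_2 held 8 of these cells, ending 2_1 held 5 and ending 1_2 held 1. The microglial list summed to 118 UMIs per 10000 in them with 83.7% in 3 cells, and 1 cell held 2330 of their 2412 Apoe UMIs.

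The NK branch was then set against the Cd3 branch. It had far more transcript of NK receptors, granzymes, perforin and inflammatory chemokines and far less of the T cell receptor and helper genes. Of 7536 genes compared, 612 (8.12%) were higher and 774 (10.3%) lower in the NK branch. Ribosomal protein genes took 24.4% of UMIs in the NK branch and 31.5% in the Cd3 branch. Scaled without ribosomal and mitochondrial genes, 415 genes were higher and 951 lower, and the median log2 ratio of all genes moved from 0.15 to -0.01. The genes used by the rule were left out of these counts. The 14 cells that met both conditions were in neither group, and 12 of them had Klrk1 and 13 had Klrd1. Genes that accompany those of the rule, such as T cell receptor and NK receptor genes, thus differed partly by the choice of cells. Their ratios describe the groups and are no independent measurement. No ending held 20 or more cells of both groups, so directions by ending rest on few cells here.

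**Figure D4:**
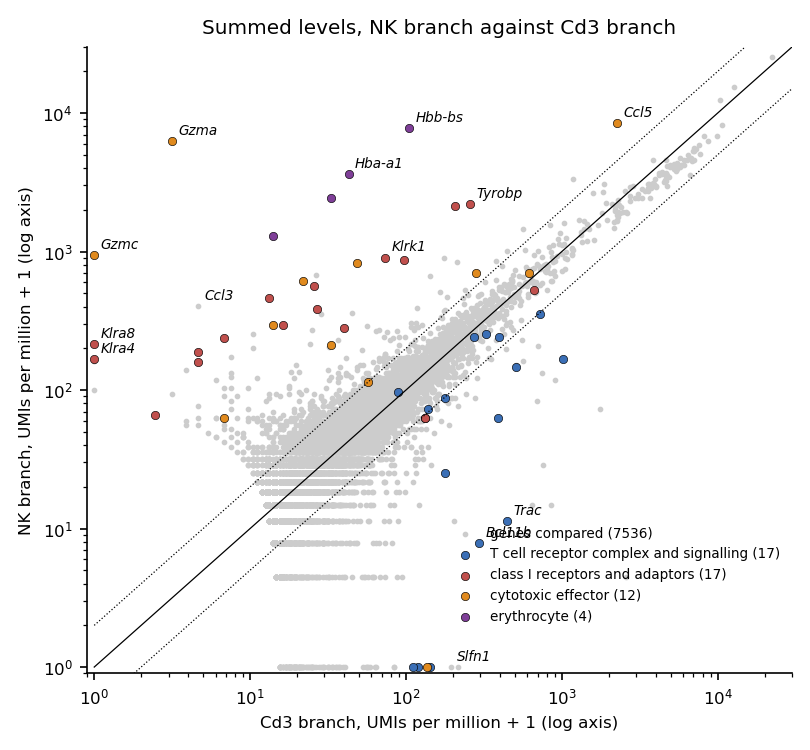
Each point is a gene, with CPM + 1 in the Cd3 branch (x) and in the NK branch (y), both on log axes; the solid line marks equality and the dotted lines 2-fold. Receptor and cytotoxic genes lie above the lines, the T cell receptor list lies on or below equality apart from Zap70, and the 4 haemoglobin genes lie above.

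Of the NK list 18 of 18 genes were higher (median log2 ratio 4.09, against 0.15 for all genes), and 17 of 17 without cells that had 20 or more haemoglobin and Alas2 UMIs. Fcer1g and Tyrobp, the adaptors that pass on signals from activating receptors, were detected in 44 and 42 of 44 cells, at 2142 and 2197 CPM. NKG2D (Klrk1) was at 902 CPM and 12.5-fold higher, and CD94 (Klrd1) at 871 and 9.05-fold higher. Of the class I receptors and adaptors 15 of 17 were higher and 1 lower. Most of these receptors lie in the NK gene complex: between chr6:128609227 and 131247362 (GRCm38), 21 genes were compared, 15 were higher and 1 lower, and the 15 were all 15 Klr genes compared. Klre1 was 23-fold higher and detected in 33 cells, Klrb1f 19.3-fold in 31, Klra9 37.8-fold in 28, and Klri2 51.4-fold in 17. Klra8 (Ly49H, the receptor for a cytomegalovirus protein) was detected in 7 NK branch cells and 0 Cd3 branch cells, at least 98.4-fold higher, and Klra7 was 43.8-fold higher. Genes of the Klra family and the pair Klrc1 and Klrc2 are near-identical, so the split of reads within each is uncertain.

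Of the cytotoxic list 10 of 12 genes were higher and 1, Gzmk, was lower. Gzma was at 6260.1 CPM (5976 to 6555) in the NK branch and 2.17 (0.448 to 6.34) in the Cd3 branch, detected in 25 of 44 against 3 of 215 cells. By ending it was at 1299, 9702, 3919, 4516 and 8069.8 CPM in the NK branch of endings 1_1, 1_2, 2_1, 2_2 and 3, and between 0 and 11.4 in the Cd3 branch. The lowest ending of the NK branch thus lay above the highest of the Cd3 branch, and the ratio over all endings was 2884 (985 to 13998). Perforin (Prf1) was 29-fold higher and Gzmb 17.2-fold higher. Gzmc was at least 436-fold higher, from 6 cells with 58.9% of the UMIs in 1 of them. All 4 chemokines compared were higher, among them Ccl3 (111-fold, 46.4 to 349), Ccl4 (26.5-fold) and Xcl1, at 895 CPM (5.11-fold). Of the type 1 list Ifng, Il12rb2, Il18rap, Stat4 and Tbx21 were higher, between 2.12-fold and 4.6-fold, and Cxcr3 was lower. Klf2, a transcription factor of circulating lymphocytes, was 3.34-fold higher.

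On the lower side, 12 of 17 T cell receptor genes were lower and none higher. Themis, Cd5 and Cd6 had no UMI in the NK branch, at least 13.8-fold, 11.4-fold and 10.7-fold lower, and Cd4, Gzmk, Slfn1 and Tcrg-C1 were at 0 too. Trac was 42.9-fold lower (14.6 to 208) and Bcl11b, a transcription factor that fixes T cell identity, 42.7-fold lower. Lck was within 2-fold at a ratio of 0.776, and Trbc1 was detected in 65.9% of NK branch cells at a level 2.05-fold lower. Trbc1 and Trbc2 are near-identical, so their separate values are uncertain. Of the ILC1 list Cxcr6 (2.42-fold), Il7r (5.73-fold) and Tmem176a (at a ratio of 0.498) were lower, and Itga1, Inpp4b, Tnfsf10 and Cd200r1 were within 2-fold. Zfp683 had too few UMIs to compare. Of the interferon list 5 of 16 were lower, led by Ly6a at 8.35-fold. Igkc, Jchain, Prg2, H2-Aa, H2-Eb1 and H2-Ab1 were also lower, but in the Cd3 branch 98.6% of the Igkc UMIs and 100.0% of the Jchain and Prg2 UMIs came from 2 cells. The cell cycle list had 9 of 12 genes higher, but without ending 2_2 it had 0 of 8 higher and 7 lower; for each of the 9, a single cell held between 54.5% and 86.7% of the NK branch UMIs.

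The NK branch was itself divided. Gzma was detected in 25 of its 44 cells (56.8%, 41 to 71.7) and undetected in 19, at median depths of 4832 and 5701 UMIs, and the groups carried nearly separate sets of surface and homing genes. This division was chosen after the values had been seen and has no test. Cells with and without Gzma numbered 2 and 2 in ending 1_1, 14 and 3 in 1_2, 3 and 5 in 2_1, 4 and 6 in 2_2, and 2 and 3 in ending 3, so both occurred in every ending. Ncr1 was detected in 23 of 25 and 19 of 19 cells, Klrb1c in 22 and 18, and Fcer1g in all 25 and all 19.

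Genes of circulating, mature NK cells accompanied Gzma. Klf2 was detected in 19 of 25 cells with Gzma (76%) and 4 of 19 without (21.1%). Eomes was found in 10 against 0, S1pr5, a receptor for exit from tissue, in 6 against 0, and Klra7, Klra4 and Klra8 in 12, 8 and 7 against 0. Klra genes as a whole were not confined to cells with Gzma. At least 1 Klra gene was detected in 32 of the 44 NK branch cells, and Klra9 in 28. Itga4 was detected in 18 against 4 and Ccr2 in 15 against 3. Prf1 was found in 18 against 9 cells, at 1066 and 108 CPM. In contrast, Cxcr6 was detected in 1 of 25 cells with Gzma and 16 of 19 without (84.2%), and Itga1 in 2 against 15, both of them known from tissue-resident lymphocytes. Inpp4b was found in 1 against 15, Tmem176b in 3 against 17, Tnfsf10 (TRAIL) in 0 against 13, Il7r in 1 against 10 and Tcrg-C4 in 0 against 12. Gzmc was detected in 6 cells, all without Gzma. Gzmb (15 against 9) and Xcl1 (13 against 16) were found on both sides.

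Cell by cell, 18 of the 25 cells with Gzma had at least 1 of Klf2, Eomes and S1pr5 and none of Cxcr6, Itga1 and Il7r; 2 had only the second set, 1 had both and 4 had neither. Of the 19 cells without Gzma, 15 had only the second set, 1 only the first, 3 both and 0 neither. Without ending 1_2, Klf2 was detected in 10 of 11 cells with Gzma against 3 of 16 without, and Cxcr6 in 1 of 11 against 15 of 16. The division was therefore present outside the ending that held the most NK cells.

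**Figure D5:**
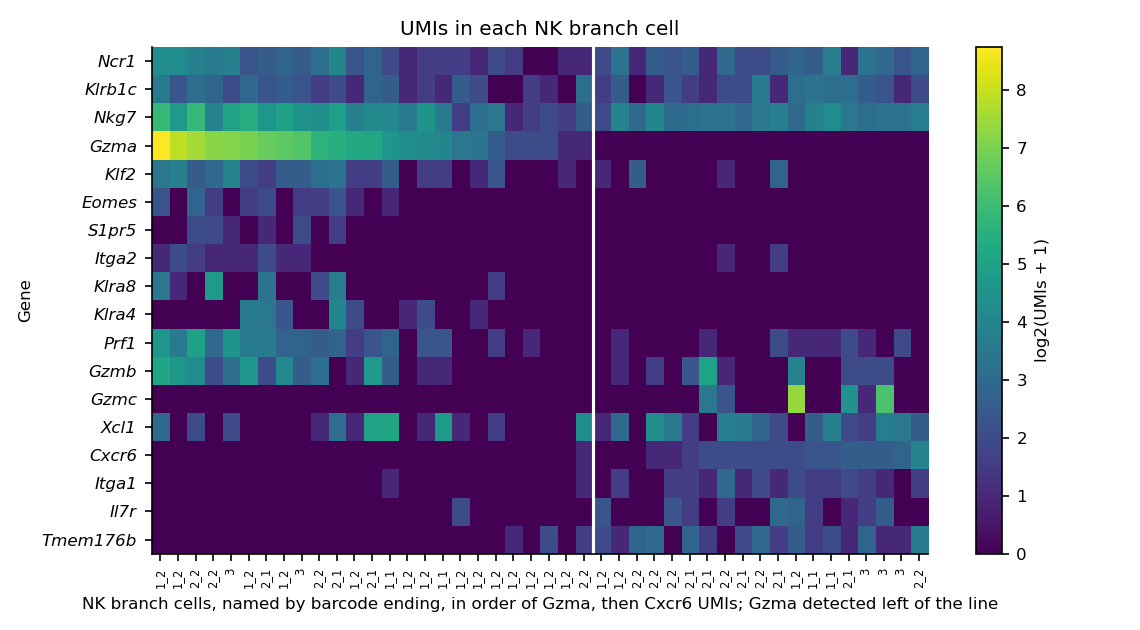
Each column is 1 of the 44 NK branch cells, named by its barcode ending, and each row a gene; colour is log2(UMIs + 1). Cells left of the white line have Gzma UMIs. Klf2, Klra8 and Klra4 lie mostly to the left, and Cxcr6, Itga1 and Tmem176b mostly to the right.

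Haemoglobin transcripts moved with this division and with the comparison of the branches. Hbb-bs, Hba-a1, Hba-a2 and Hbb-bt were 75.1-fold to 99.2-fold higher in the NK branch, and the erythrocyte list summed to 152 UMIs per 10000 there against 1.9 in the Cd3 branch. The sum ranged from 0.426 to 427 between endings and had a median of 2.02 per cell. In the NK branch 7 cells had 20 or more haemoglobin and Alas2 UMIs; all 7 were from ending 1_2, all had Gzma, and 1 Cd3 branch cell of that ending was alike. Hbb-bs had a UMI in 82.1% of the microglia of that ending, and in 88%, 22.2%, 41.6% and 37.1% of those of endings 1_1, 2_1, 2_2 and 3; the part of free RNA in these cells was not tested. Gzma had UMIs in 9 of 2583 microglia of ending 1_2 (0.348%) and in 0 to 4 in the others. Without the 7 cells, 18 NK branch cells had Gzma, of which 16 had Klf2, 10 Eomes, 1 Cxcr6 and 2 Itga1. Without haemoglobin-rich cells, 10 of 12 cytotoxic and 14 of 16 class I receptor genes were higher, whereas 0 of 4 erythrocyte genes passed the ratio of 2. The microglial list was at 50.2 UMIs per 10000 in the NK branch (12.6 to 112 between endings) and 32.2 in the Cd3 branch, and its part in the ratios was not tested.

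The same rule was applied to the 2730 cells of the ApoeKO table whose barcodes begin with L7 or L8, which match no label either. Apoe was at 17.7 CPM in L7 and 6199.6 in L8, against 4291 to 18723 in the endings of the aged table, so L8 goes against the genotype of its table. The 2 groups held 28 and 45 members, 73 in all (2.67%, 2.1 to 3.35), beside 118 and 110 CD8 T cells. The Cd3 branch held 62 cells, 23 of them with Cd4 (37.1%), the NK branch 7 (1 in L7 and 6 in L8) and both branches 4. Of the genes named in the 3 comparisons above that had UMIs here, 13 of 14, 12 of 14 and 13 of 20 had the same direction in this set. Of the 7 NK branch cells 3 had Gzma and 4 did not. Eomes was detected in 2 of the 3 against 0 of the 4, Klra4 and Klra8 each in 2 against 0, and Prf1 in 3 against 1, while Cxcr6 was detected in 0 against 4, Itga1 in 1 against 3 and Il7r in 0 against 2. Other genes of the aged division were seen in few of these cells or on both sides: Klf2 in 1 against 0, Tmem176b and Tnfsf10 each in 0 against 1, S1pr5 in 0 of 7, Inpp4b and Itga4 each in 1 against 2, and Ccr2 in 1 against 1. With 7 cells the division could not be assessed. All 3 cells with Gzma were from L8. Among the 39 Cd4-undetected cells, Tmem176b was detected in 8 of 10 with Tcrg-C1 and 6 of 29 without, and Gzmk in 0 against 4. Among the 23 Cd4-detected cells, Eomes was detected in 3 of 7 with Gzmk and 0 of 16 without. Age, genotype and region differ between the tables, and the effect of any of them cannot be told apart from the library.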

How the data were processed

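Cells of aged and ApoeKO mouse brain were profiled with Chromium 3′ v3.1 chemistry. Cell Ranger 4 and the mm10 genome are named in the submitters' processing notes, beside Trim Galore, FastQC and bcl2fastq, without their settings. The authors deposited UMI counts per gene and cell, not normalised, for 20765 genes in the aged table and 20736 in the ApoeKO table. Of the ApoeKO table, 11224 columns that no label ties to a sample were not used, nor were the Smart-seq2 tables. The deposited aged table holds 702 cells with under 500 genes, and its lowest cell has 199.

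Counts were summed over the cells of each class and scaled to 1000000 UMIs with Python 3.11.15, numpy 2.4.6 and scipy 1.17.1; figures used matplotlib 3.10.9. Shares have exact Clopper-Pearson and levels exact Poisson 95% intervals, and ratios a conditional exact binomial interval; these cover counting error only. A level of 0 was bounded with 3 UMIs over the group. Genes with 20 or more UMIs in both groups together were compared, and a ratio of 2 or more was counted. Because cells could not be assigned to samples, no test was run. For thinned shares each cell was reduced to 1000 UMIs (seed 1). No doublet caller was run; leaving out cells with 2 or more markers of another cell type was an alternative. The scripts were tested on simulated counts, with 200 genes changed 4-fold in each comparison. Of the unchanged genes, 4.11% passed the ratio of 2 for the Cd3 branch against CD8 T cells. The share was 7.98% for the NK branch against the Cd3 branch and 3.24% for Cd4-detected against Cd4-undetected cells. A ratio past 2 alone therefore does not mark a gene as different.

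The genes named were drawn from the markers of the rule, up to 4 members of each of 34 gene lists with the most UMIs, all compared members of the lists for lymphocyte subsets, and up to 10 genes per direction with the largest ratio (1 UMI added) among those with 50 or more UMIs and the same direction in every ending with 20 or more cells of both groups. Genes that describe the divisions by Tcrg-C1, Gzmk and Gzma were chosen after their values were seen. The members and lists were chosen with earlier results of these data known. The limit of 10% detection and the removal of cells rich in haemoglobin were added after seeing the data. Other alternatives were the gene minimum, the microglial limit, the number of Cd3 genes, a minimum of 50 UMIs, scaling without ribosomal and mitochondrial genes, per-cell means, and leaving out each ending. Some genes are not reported here.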

Additional observations from a re-analysis of the deposited data

How the results depend on the processing

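No paired analysis was possible because the replicate numbers in the labels are not carried by the columns of the table, and no test was run. Leaving out each barcode ending in turn gave 145 (without 2_2) to 257 (without 1_1) members, an NK branch share of 11.6% (without 1_2) to 23.4% (without 2_2) and a Cd4-detected share of 39.9% to 44.8%. With at least 1 Cd3 gene in place of 2, these shares were 11% and 28.5%, and with cells thinned to 1000 UMIs Cd4 was detected in 11.2%. The genes past 2-fold numbered 1439 for the Cd3 branch against CD8 T cells (1071 to 1621 without 1 ending), 1386 for the NK branch against the Cd3 branch (1057 to 1407) and 501 for Cd4-detected against Cd4-undetected cells (379 to 532). With 50 or more UMIs they numbered 648, 505 and 103, where fewer genes were compared, and with detection in 10% of cells the first was 159. Leaving out haemoglobin-rich cells gave 265 members and 1429, 1376 and 516 genes.

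Directions turned for 7 named genes, as log2 ratios. In the Cd3 branch against CD8 T cells, Abcc9 was at 0.40 without cells with markers of another type, Hba-a1 at 0.43 without haemoglobin-rich cells, and Ptprb between -4.13 (without ending 3) and 0.17 (without 2_1). In the NK branch against the Cd3 branch, Hba-a2 was at -0.16 and -0.31 under the same removals and between -1.31 (without 1_2) and 6.54 (without 1_1). Jchain and Prg2 were both at 2.28 without cells with markers of another type; Jchain ranged from -6.38 (without 2_2) to 2.59 (without 1_2) and Prg2 from -5.51 to 2.59. Ccnd1, in Cd4-detected against Cd4-undetected cells, ranged from -0.28 (without 2_2) to 2.73 (without 1_2). The cause was not tested. Depth limits the reading of missing UMIs, and the 44 NK branch cells limit every share within them.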
